A study of Mus musculus with 8 samples.

Results

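Matrix metalloproteinases (Mmp) and tissue inhibitors of metalloproteinases (Timp) were followed across mouse hepatic stellate cells, pericyte-like liver cells that hold vitamin A while quiescent and become matrix-producing myofibroblasts on activation. The set held 10 named genes, Mmp2, Mmp3, Mmp9, Mmp11, Mmp13, Mmp14, Mmp19, Timp1, Timp2 and Timp3, matched by symbol. Of these, 9 were found among the 14162 genes of the expression table (6 of 7 metalloproteinases and 3 of 3 inhibitors), and all 9 passed the filter on low values. Mmp9 was not analysed here. The RNA-seq series held 8 libraries in 4 groups of 2, labelled a and b: quiescent stellate cells, activated stellate cells, activated cells that received the microRNA miR-15a, and activated cells that received a control miRNA. The study asked which genes are candidate targets of miR-15a. C57BL/6J and SCID mice (a strain that lacks mature B and T cells) are both named for the series, but no library is tied to a strain. The age of the animals and the route, dose and time of the miRNAs are not given in the sources used here. Whether libraries a and b are 2 animals, 2 cultures or 2 preparations is not stated, so p-values reflect library-to-library spread alone, and that spread may be technical.

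Metalloproteinases are zinc-dependent endopeptidases that cut collagens and other matrix proteins. Most are secreted as latent forms and a few, such as Mmp14, are anchored in the cell membrane. TIMP proteins bind the active site and block it, and Timp2 also helps to bring latent Mmp2 to Mmp14 for activation at the cell surface. In liver fibrosis, activated stellate cells are known as a source of Timp1, which slows the breakdown of scar collagen, whereas Mmp13 is the main interstitial collagenase of rodents.

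The deposited values are normalised scores and not read counts. The same 910 distinct values recur in all 8 libraries, the totals lie between 10193036 and 10234768, 10 genes share the maximum of 125636 in each library, and the sequencing depth is unknown. Differences are given on the log2(value + 5) scale with the standard error of the limma fit, and a gene is called at a Benjamini-Hochberg adjusted p below 0.05 over 13150 tested genes. Among the fixed marker genes, the stellate label was met only in part. All 8 myofibroblast markers, including Acta2 and Col1a1, were higher in activated than in quiescent libraries, and of 15 stellate markers 11 were measured, 4 higher and 7 lower with activation (median -2.32) and 4 higher and 3 lower with miR-15a than with the control. The quiescent libraries also held markers of other liver cells. Their 12 sinusoidal endothelial markers summed to between 175351 and 244755 and their 12 measured macrophage markers to between 137169 and 158710. The 11 stellate markers summed to between 16793 and 17736. These sums run over different genes without correction for length, so they do not rank the cell types by amount. In the activated libraries the endothelial sum was 624 to 812 and the macrophage sum 1758 to 1949. In such bulk RNA, fewer cells of a type and less RNA per cell cannot be told apart.

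**Figure D1:**
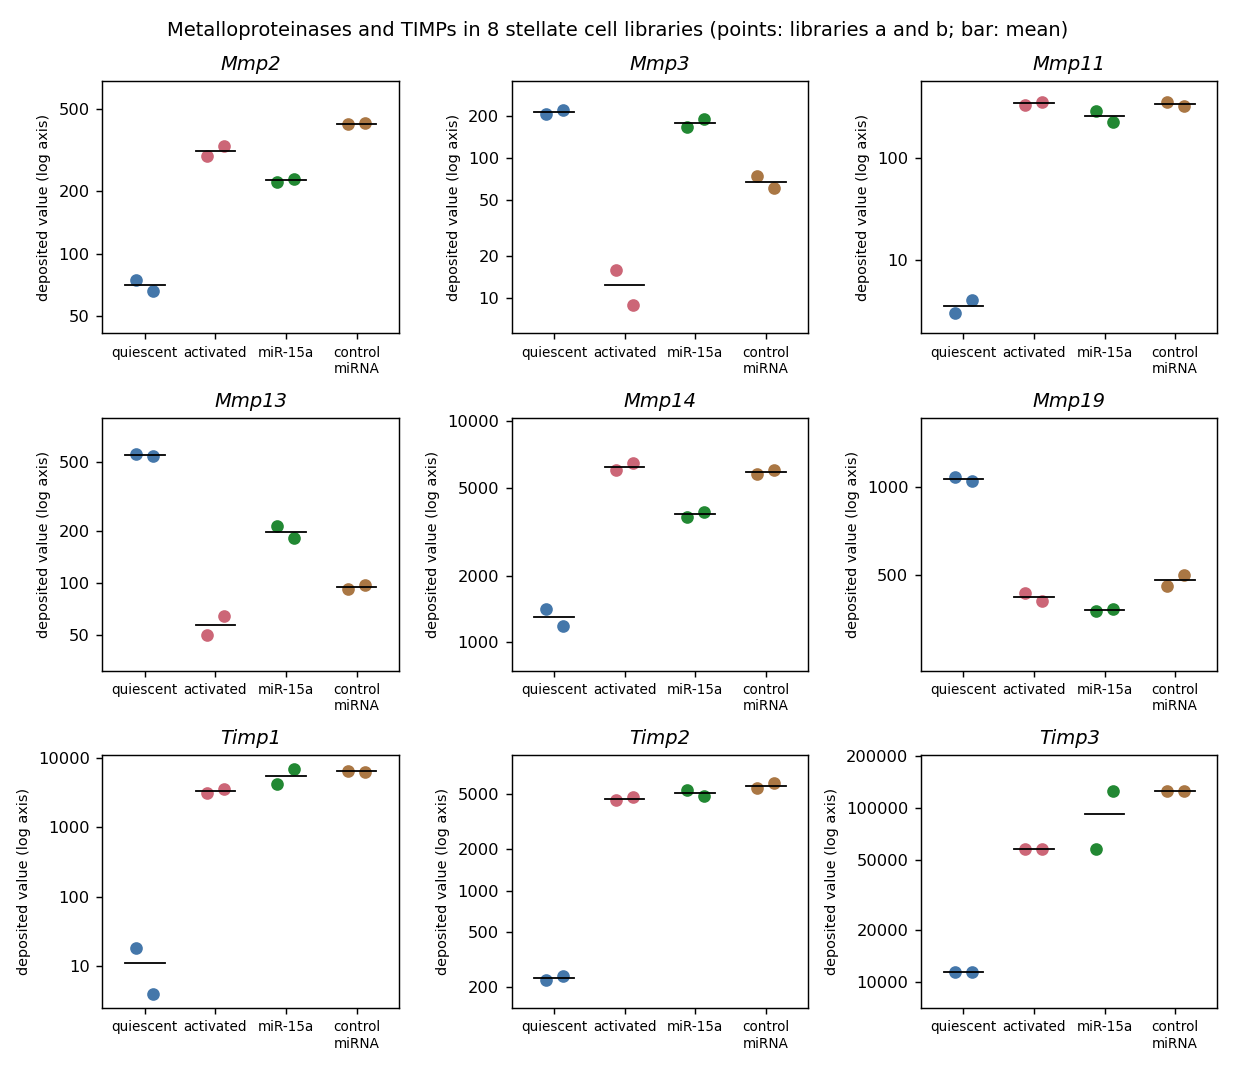
Deposited value (log axis, scaled separately in each panel) of each of the 9 genes in the 8 libraries, with 2 points a group and a bar at the mean. Mmp3 and Mmp13 are lowest in activated cells and higher with miR-15a than with the control miRNA. Mmp2 and Mmp14 are lowest in quiescent cells and lower with miR-15a than with the control miRNA. The Timp genes are lower in quiescent cells than in the other 3 groups.

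All 9 genes differed between activated and quiescent cells, 6 higher (Mmp2, Mmp11, Mmp14, Timp1, Timp2 and Timp3) and 3 lower (Mmp3, Mmp13 and Mmp19). Over all tested genes, 79.5% were called in this comparison, 45.4% higher and 34.1% lower, so a call alone does not set these genes apart. The median log2 difference of the 9 genes was 2.26, beside 0.21 over all tested genes. No library of one group overlapped the other group for any of the 9. The share of all tested genes without such overlap was not computed, so this does not set the 9 apart either. Between miR-15a and control miRNA, 5 of the 9 were called, 2 higher with miR-15a (Mmp3 and Mmp13) and 3 lower (Mmp2, Mmp14 and Mmp19), against 29.9% of all tested genes (14.4% higher, 15.4% lower). Their median difference was -0.34, beside -0.07 for all tested genes.

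The collagenase and the stromelysin moved together in both comparisons. Mmp13, which cuts fibrillar collagen, had values of 560 and 542 in quiescent, 50 and 65 in activated, 214 and 183 with miR-15a and 93 and 98 with the control miRNA. The 4 groups did not overlap, in the order quiescent, miR-15a, control miRNA, activated. Mmp13 fell by 3.16 ± 0.14 (SE) from quiescent to activated cells on the log2 scale (limma adjusted p = 4.9e-07) and was higher with miR-15a by 1.01 ± 0.14 than with the control (adjusted p = 0.0021). The miR-15a libraries remained below the quiescent ones by a log2 difference of -1.45 ± 0.14 (adjusted p = 4.9e-05).

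Mmp3, stromelysin-1, cuts proteoglycans and basement membrane proteins and can activate other latent metalloproteinases. Its values were 204 and 220 in quiescent, 16 and 9 in activated, 166 and 190 in miR-15a and 74 and 61 in control miRNA libraries. Again no groups overlapped, and the order was the same as for Mmp13. It fell by 3.66 ± 0.21 with activation (limma adjusted p = 1.9e-06) and was 1.34 ± 0.21 higher with miR-15a than with the control (adjusted p = 0.0036). The miR-15a and quiescent libraries were not separated by the test, with a log2 difference of -0.25 (95% interval -0.74 to 0.25, adjusted p = 0.33).

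The gelatinase Mmp2 and its membrane-bound activator Mmp14 ran the other way. Mmp2, which cuts denatured collagen and type IV collagen, had values of 75 and 66 in quiescent, 296 and 332 in activated, 222 and 230 in miR-15a and 424 and 426 in control miRNA libraries. No groups overlapped, and the control miRNA libraries were the highest. Mmp2 was 2.08 ± 0.10 higher in activated than in quiescent cells (limma adjusted p = 7.9e-07) and -0.90 ± 0.10 with miR-15a against the control (adjusted p = 0.000802).

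Mmp14, or MT1-MMP, is itself a collagenase at the cell surface. It read 1420 and 1190 in quiescent, 6000 and 6462 in activated, 3682 and 3894 in miR-15a and 5764 and 6000 in control miRNA libraries. The activated and control miRNA groups shared the value 6000, and the miR-15a libraries lay between them and the quiescent ones. The differences were 2.26 ± 0.09 for activation (limma adjusted p = 2.5e-07) and -0.63 ± 0.09 for miR-15a against the control (adjusted p = 0.0022). Against the untreated activated cells the miR-15a libraries were also lower, by a log2 difference of -0.72 ± 0.09 (adjusted p = 0.000930).

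The other metalloproteinases, Mmp11 and Mmp19, differed in opposite directions with activation. Mmp11, stromelysin-3, is activated inside the cell by furin-type proteases and was first known from the stroma around tumours. It was near the floor at 3 and 4 in quiescent libraries and read 336 and 358 in activated, 292 and 228 in miR-15a and 357 and 328 in control miRNA libraries. The miR-15a libraries were below all 4 libraries of the other activated groups, yet the difference from the control, -0.40 ± 0.15, was not called (limma adjusted p = 0.080), although it was without miR-15a library a (adjusted p = 0.048). The rise with activation was 5.37 ± 0.15 (adjusted p = 4.1e-08), a size that depends on the number added before taking logs because the quiescent values are so low: 6.28 with 1 added and 3.96 with 20.

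Mmp19 is a secreted enzyme with a broad choice of basement membrane substrates. Its values were 1082 and 1050 in quiescent, 432 and 406 in activated, 374 and 382 in miR-15a and 458 and 500 in control miRNA libraries. The quiescent libraries were far above the rest, and the other 3 groups lay close together without overlap. Mmp19 fell by 1.34 ± 0.07 with activation (limma adjusted p = 1.4e-06), and the difference between miR-15a and control was -0.34 ± 0.07 (adjusted p = 0.013). That second call was lost without miR-15a library a (adjusted p = 0.057), without control miRNA library b (0.065) and with only the 2 compared groups in the fit (0.061).

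All 3 TIMP genes were higher in activated cells, and none was called between miR-15a and control. Timp1, a soluble inhibitor encoded on the X chromosome, read 18 and 4 in quiescent, 3168 and 3514 in activated, 4266 and 6825 in miR-15a and 6464 and 6290 in control miRNA libraries. The quiescent libraries were separate from all others, and the miR-15a libraries lay on both sides of the control ones. Its rise with activation was 7.86 ± 0.40 (limma adjusted p = 9.4e-07). For miR-15a against control the log2 difference was -0.24 (95% interval -1.18 to 0.69, adjusted p = 0.68), an interval that leaves room for a difference of either sign, and without miR-15a library a it was 0.10.

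Timp2, the inhibitor that also takes part in Mmp2 activation, stood at 228 and 242 in quiescent, 4547 and 4776 in activated, 5345 and 4900 in miR-15a and 5563 and 6003 in control miRNA libraries. The order of the group means was quiescent, activated, miR-15a, control miRNA, with no overlap between neighbours. Timp2 was 4.28 ± 0.07 higher in activated than in quiescent cells (limma adjusted p = 4.9e-09). The miR-15a libraries differed from the control ones by -0.18 (95% interval -0.34 to -0.01), which was not called after adjustment (adjusted p = 0.10).

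Timp3 binds to the matrix and also inhibits some ADAM sheddases. It was listed at 11355 in both quiescent libraries and 58200 in both activated libraries. The miR-15a libraries read 58200 and 125636, and both control miRNA libraries 125636. At this height the scale is coarse: 125636 is the ceiling and the very next step above 58200, a factor of 2.16, so the 3 activated groups differ by at most 1 step and the size of any difference between them is not resolved. The rise from quiescent to activated cells was 2.36 ± 0.30 (limma adjusted p = 0.000172). The difference between miR-15a and control was -0.56 ± 0.30 (95% interval -1.25 to 0.14, adjusted p = 0.20). It became -1.11 without miR-15a library b and 0 without library a, a single step of the scale or none.

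**Figure D2:**
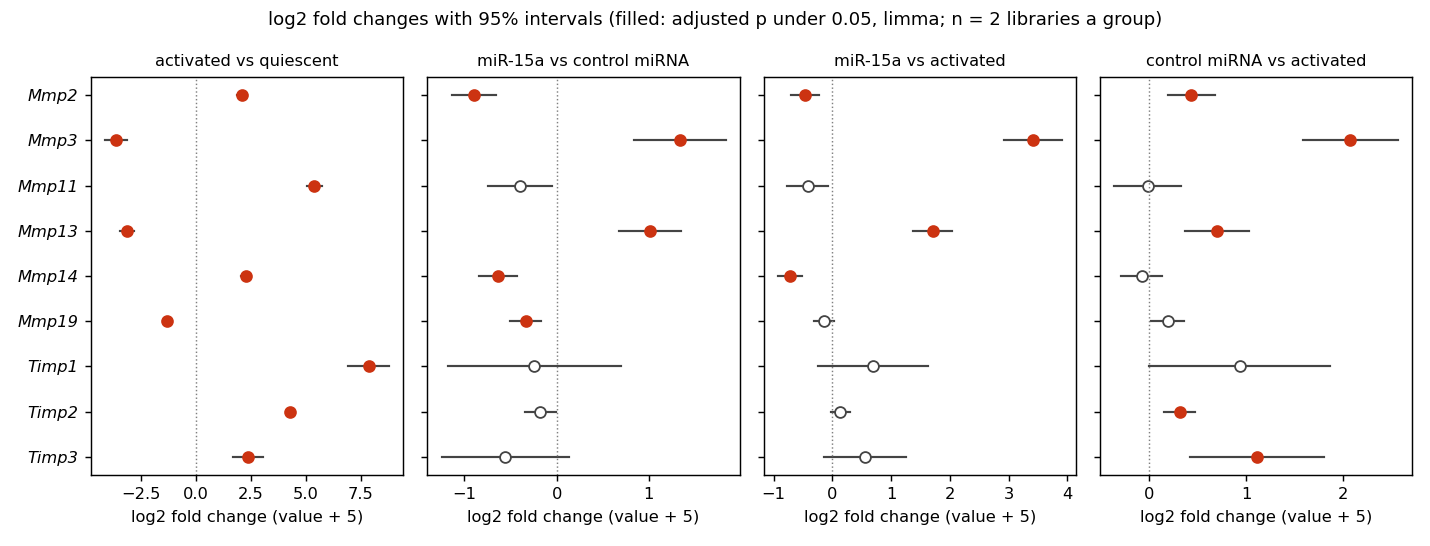
Log2 differences of the 9 genes, with points at the limma estimate on the log2(value + 5) scale and bars for its uncertainty. Mmp3 and Mmp13 lie below 0 for activated against quiescent cells and above 0 for miR-15a against control miRNA, and Mmp2 and Mmp14 the reverse.

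The untreated activated cells gave a second reference for the miR-15a libraries and a check on the control miRNA. Against them, 4 of the 9 genes were called with miR-15a, Mmp3 and Mmp13 higher and Mmp2 and Mmp14 lower, where 38.4% of all tested genes were called (16.8% higher, 21.6% lower). Mmp3 was 3.41 ± 0.21 higher (limma adjusted p = 2.7e-05) and Mmp13 was 1.71 ± 0.14 higher (adjusted p = 0.000114). Mmp2 was at -0.46 (adjusted p = 0.011), a call lost without activated library b (0.079) or without miR-15a library a (0.054). Among the uncalled genes, the Timp3 difference was 1.11 without miR-15a library a and 0 without miR-15a library b, a single step of the scale or none. The Mmp11 difference was -0.59 without miR-15a library a. Timp1 was at 0.69, also without either quiescent library. The control miRNA libraries themselves differed from the untreated activated ones in 5 of the 9 genes, all higher (Mmp2, Mmp3, Mmp13, Timp2 and Timp3), where 13.8% of all tested genes were called, 7.18% higher and 6.61% lower. Mmp3 was at 2.07 ± 0.21 (adjusted p = 0.0018). Timp3 was at 1.11 ± 0.30 (adjusted p = 0.049), a single step of the scale that ends at the ceiling in both control libraries, so its size is not resolved. Mmp13 was at 0.70 ± 0.14 (adjusted p = 0.023), Mmp2 at 0.43 ± 0.10 (adjusted p = 0.035) and Timp2 at 0.31 ± 0.07 (adjusted p = 0.032). The number called was 1 without activated library a or without control miRNA library b, 2 without activated library b and 3 without control miRNA library a. The comparisons with untreated and with control activated cells share libraries, so their values stand side by side and are not independent.

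Set against the quiescent libraries, 8 of the 9 genes were called with miR-15a (6 higher, 2 lower), where 71.5% of tested genes were called (37.1% higher, 34.4% lower), and all 9 with the control miRNA (6 higher, 3 lower), where 73.7% were (40.7% higher, 33.0% lower). Mmp3 was the exception. With the control miRNA it was below quiescent by a log2 difference of -1.59 ± 0.21 (limma adjusted p = 0.000255).

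The 2 genes that were higher with miR-15a lie in 1 stretch of chromosome 9. Mmp13 (GRCm38, chr9:7272514-7283331, plus strand) and Mmp3 (chr9:7445822-7455975, plus strand) belong to a cluster of 10 metalloproteinase genes that spans chr9:7272514-7699585, 427072 bases with no other protein-coding gene between them. The remaining members are spread over other chromosomes: Mmp2 (chr8:92827291-92853420, plus), Mmp11 (chr10:75923222-75936496, minus), Mmp14 (chr14:54431612-54445364, plus), Mmp19 (chr10:128790910-128800824, plus), Timp1 (chrX:20870166-20874735, plus), Timp2 (chr11:118301069-118355740, minus) and Timp3 (chr10:86300372-86349506, plus).

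From the fixed list of 17 other Mmp and Timp genes, 13 were in the table and 11 were tested, 5 higher and 4 lower in activated than in quiescent cells (median 0.50), shares close to the 45.4% and 34.1% of all tested genes. Mmp20, among the 5 higher, passed the filter on low values only through its activated libraries. Mmp12, the elastase of macrophages, carried the smallest adjusted p among the 11 tested genes. It read 2758 and 2866 in quiescent, 434 and 410 in activated, 2276 and 2500 in miR-15a and 332 and 348 in control miRNA libraries. It fell by 2.72 ± 0.07 with activation (limma adjusted p = 3.0e-08) and was 2.79 ± 0.07 higher with miR-15a than with the control (adjusted p = 1.5e-06). Mmp12 thus followed the order of Mmp3 and Mmp13 at a higher level, except that its control miRNA libraries were below the activated ones.

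Stromelysin-2, Mmp10, stood at 120 and 156 in quiescent, 26 and 26 in activated, 90 and 107 in miR-15a and 20 and 28 in control miRNA libraries. It fell by 2.19 with activation (limma adjusted p = 2.7e-05) and was 1.84 ± 0.20 higher with miR-15a than with the control (adjusted p = 0.000635). Mmp27 and the neutrophil collagenase Mmp8 had low values and were also higher with miR-15a. For Mmp8 the miR-15a libraries lay above the quiescent ones as well, at 12 and 11. Mmp27 was at 37 and 26 with miR-15a and 1 and 6 with the control, a log2 difference of 2.15 ± 0.43 (adjusted p = 0.0094, and 0.060 without miR-15a library a). Mmp8 was at 18 and 20 against 1 and 6, a log2 difference of 1.56 ± 0.29 (adjusted p = 0.0071, and 0.054 with only the 2 compared groups in the fit). With values this near the floor, the difference depends on the number added before taking logs: with 1 and with 20 added it was 3.10 and 1.13 for Mmp27 and 2.42 and 0.74 for Mmp8.

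The other strong increases with activation were outside the cluster. Mmp23, a membrane-anchored enzyme, rose from 4 and 8 in quiescent to 1232 and 1182 in activated libraries, a log2 difference of 6.81 (limma adjusted p = 3.5e-08). Mmp28, epilysin, rose from 4 and 7 to 176 and 178, a log2 difference of 4.13 (adjusted p = 3.1e-07). Neither was called between miR-15a and control. Both rises rest on quiescent values near the floor. Over the 18 alternatives they ran from 5.56 to 7.49 for Mmp23 and from 2.95 to 4.81 for Mmp28.

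Grouped by position, a grouping made after the values were seen and so given without a test, 9 cluster genes were tested. Of them 6 (Mmp3, Mmp8, Mmp10, Mmp12, Mmp13 and Mmp27) were lower with activation, 1 was higher (Mmp20) and 2 (Mmp1a and Mmp1b) were not called. The same 6 were higher with miR-15a than with the control and none was lower. Mmp20 was near the floor throughout, at 12 and 10 in activated libraries and at most 6 in the others. It passed the filter on low values only through the activated libraries, so its call as higher there is not independent of the filter. Of the 8 tested metalloproteinases elsewhere, 7 were higher with activation and 1 lower (Mmp19), and 0 were higher and 3 lower with miR-15a (Mmp2, Mmp14 and Mmp19). Over all tested genes, 45.4% were higher and 34.1% lower with activation, and 14.4% higher and 15.4% lower with miR-15a than with the control. The median difference with miR-15a was 1.34 in the cluster and -0.44 elsewhere. Mmp1a and Mmp1b are related genes, and whether reads were split between them was not tested. Exons of Mmp12 and Mmp1b share 157 bases on opposite strands. Whether counting used the strand is not given in the sources used here.

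**Figure D3:**
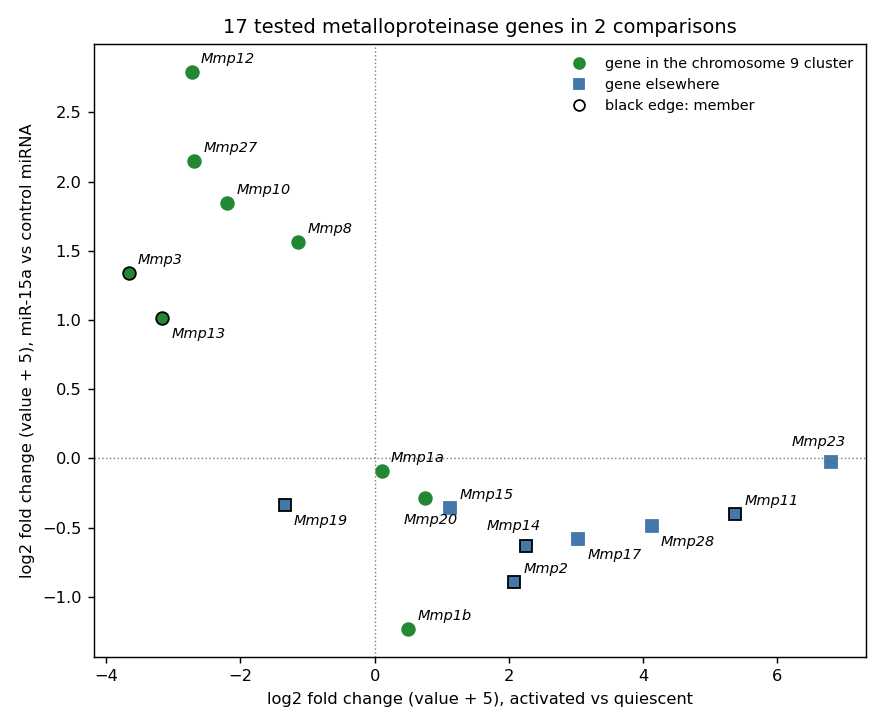
Each of the 17 tested metalloproteinases placed by its log2 difference with activation (x axis) and between miR-15a and control miRNA (y axis), both on the log2(value + 5) scale. Circles mark genes of the chromosome 9 cluster, squares genes elsewhere, and black edges the named set; 6 of the 9 circles lie at the upper left, and all 8 squares lie below 0 on the y axis, Mmp23 only just; 3 of them were called.

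A short element recurs in promoters of the cluster, shown here because 6 of the 9 tested cluster genes moved together. The letters TGAGTCA, or their reverse complement TGACTCA, are the known binding sequence of AP-1 (Fos and Jun). In RefSeq promoters (GRCm38.p6, 250 bases before to 50 after a gene's start) they occur in 7 of the 10 cluster genes. A gene was counted if any of its promoters held them. Counted the same way, they occur in 518 of 10539 genes of the table with an entry (4.92%). They occur in 0 of the 9 other Mmp and Timp genes with an entry. Of single promoters in the whole collection, 1709 of 32851 hold them (5.2%). Mmp7 and Mmp12 each have 2 promoters, of which 1 holds the element. Among the members, 7 had an entry and 2 held the element. Each line gives 30 bases on the gene's own strand with the element in capitals.
Mmp3 (chr9:7445765-7445794, plus): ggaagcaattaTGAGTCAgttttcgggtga
Mmp13 (chr9:7272468-7272497, plus): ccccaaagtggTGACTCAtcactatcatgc
Mmp10 (chr9:7502268-7502297, plus): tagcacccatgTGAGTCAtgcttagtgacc
Mmp12 (chr9:7347319-7347348, plus): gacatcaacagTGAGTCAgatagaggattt
Mmp1a (chr9:7464057-7464086, plus): gttgtcaaccaTGAGTCAcatagcctctgg
Mmp1b (chr9:7388101-7388130, minus): gttacaaagccTGAGTCAtatagcctctgg
Mmp7 (chr9:7692016-7692045, plus): aagtgtgcaaaTGAGTCAcctatttccaca
The element begins 46 bases before the start in Mmp3, 35 in Mmp13, 63 in Mmp10 and 44 in Mmp12. Presence of the letters did not track the values gene by gene: Mmp8 and Mmp27, which moved with Mmp3, lack them in this window, and Mmp1a and Mmp1b, which were not called, hold them. A match describes the sequence and is not a measured binding site.

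Since the study looked for targets of miR-15a, the 3′ UTRs were searched for its seed match. The seed, bases 2 to 8 counted from the 5′ end, is in capitals in the mature RefSeq sequence.
mmu-miR-15a-5p: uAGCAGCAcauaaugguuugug
The matching letters TGCTGCT occurred in the longest annotated 3′ UTR of 2 of the 9 members, Mmp2 and Mmp19, beside 23.9% of the 12534 genes of the table with a UTR. The members' median UTR length was 1213 bases, close to the 1166 of all genes. The match in Mmp2 is at chr8:92852851-92852857 in the last of 13 exons, 186 bases after the stop codon, and that in Mmp19 at chr10:128800097-128800103 in the last of 9 exons, 997 bases after it.
Mmp2: taccctcccgggTGCTGCTtctccttcctg
Mmp19: ttattacagatcTGCTGCTcaggggaaaga
Both genes were lower with miR-15a than with the control, Mmp19 by the smallest called difference of the set, a call lost in 4 of the 18 alternatives. Against untreated activated cells Mmp2 was called at -0.46 and Mmp19 was not (-0.15, limma adjusted p = 0.15). Mmp14, also lower, held neither these letters nor the 6-base match GCTGCT, which is present in 44.0% of genes and in 3 members, Mmp2, Mmp11 and Mmp19. A match does not show that the miRNA acts there.

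Markers of other liver cells moved with the cluster genes. All 12 measured macrophage markers and all 12 endothelial markers were lower in activated than in quiescent libraries and higher with miR-15a than with the control. The macrophage sum was 12993 to 14303 with miR-15a and 2310 to 2543 with the control, and the endothelial sum 9358 to 9475 against 923 to 1191. Marco was at 0 in activated library b, as was the endothelial marker Pecam1. Of the 8 neutrophil markers only Csf3r was measured, at 12 in both miR-15a libraries and 1 in both control libraries. All 8 hepatocyte markers were lower in activated than in quiescent libraries, and 0 of 8 were called between miR-15a and control. Both measured cholangiocyte markers, Spp1 and Sox9, were higher with activation and lower with miR-15a. Among the mesothelial and portal fibroblast markers, 6 of 8 were measured, 6 were higher with activation and 4 lower with miR-15a. Of the 8 lymphocyte markers 2 were measured, with sums between 1 and 23 in all 8 libraries. The part of these cells in the metalloproteinase differences was not tested.

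Levels relative to quiescent cells were compared between the markers and the cluster genes Mmp3, Mmp12 and Mmp13. The cluster genes Mmp8, Mmp10 and Mmp27 were left out of this comparison. Relative to the quiescent mean, Mmp12 was at 80.9% to 88.9% and Mmp3 at 78.3% to 89.6% in the miR-15a libraries, while the macrophage sum was at 8.78% to 9.67% and the endothelial sum at 4.46% to 4.51%. The sums rest on the most abundant genes, and single markers ranged widely: group means of the 12 macrophage markers lay between 2.34% (Csf1r) and 39.0% (Lyz2) with a median of 11.3%, and those of the 12 endothelial markers between 0.392% (Stab2) and 47.1% (Emcn) with a median of 10.1%. Mmp3 and Mmp12 were above all 24 of these, whereas Mmp13 lay within their range. In the control miRNA libraries Mmp12 was at 11.8% to 12.4%, Mmp3 at 28.8% to 34.9% and the macrophage sum at 1.56% to 1.72%. Single macrophage markers there reached 15.5% (Lyz2) with a median of 1.63%, and endothelial ones 14.2% (Emcn) with a median of 0.311%. Mmp12 thus lay within the marker range with the control, and Mmp3 and Mmp13 above it. For Mmp13 the values were 33.2% to 38.8% with miR-15a and 16.9% to 17.8% with the control.

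**Figure D4:**
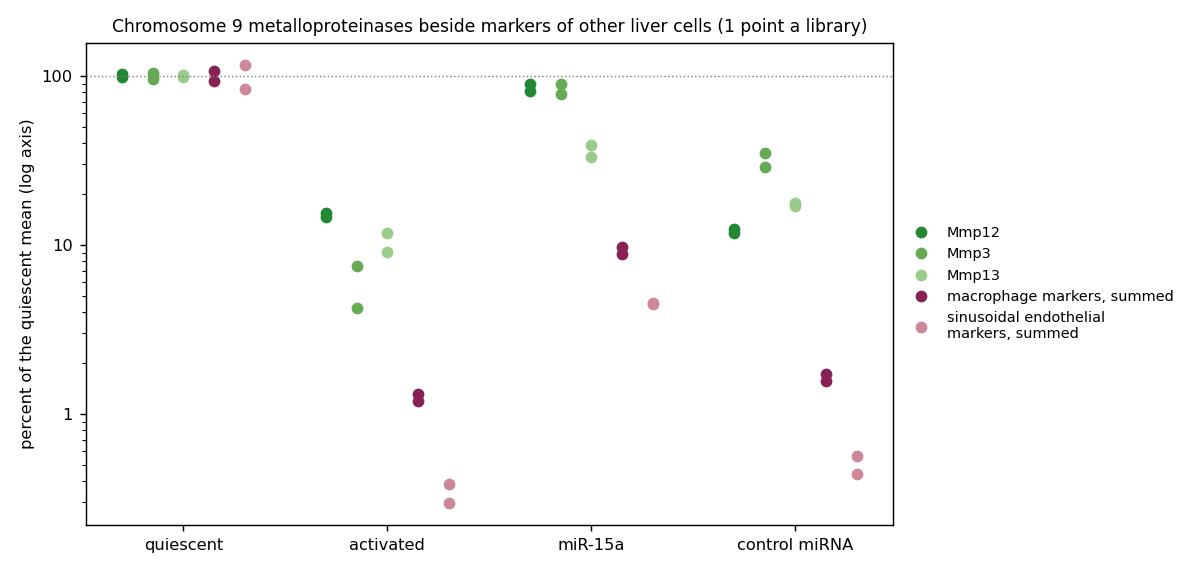
Level of Mmp12, Mmp3 and Mmp13 and the summed macrophage and endothelial markers in each library, as a percent of the quiescent mean (log axis, 1 point a library). With miR-15a, Mmp12 and Mmp3 lie between 78.3% and 89.6%, and both marker sums below 10% of the quiescent level.

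The groups also differed in sex-linked transcripts, in a design where Timp1 is X-linked. Xist, the RNA of the inactive X, was at 8724 in both quiescent libraries, 169 and 21 in activated, 3373 and 3373 in miR-15a and 3373 and 5027 in control miRNA libraries. The Y-linked Ddx3y was at 44 and 40, 2606 and 2570, 1046 and 1006, and 1282 and 1268 in the same order. The control miRNA and miR-15a libraries both differed from the activated ones in these transcripts, Ddx3y by -1.02 and -1.33 (limma adjusted p = 0.000353 and 1.1e-05). The sex of the source animals therefore cannot be told apart from activation, nor from the miRNAs in the comparisons with untreated activated cells. Between miR-15a and control the Ddx3y difference was -0.31 (adjusted p = 0.013) and Xist was not called (adjusted p = 0.80).

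Regulators of the system changed in mixed directions with activation. Of 9 tested activators of latent metalloproteinases, 2 were higher and 6 lower (median -0.42, beside 0.21 for all genes). The shares over all tested genes, for this and the following lists, were 45.4% higher and 34.1% lower with activation. With miR-15a against the control they were 14.4% higher and 15.4% lower. The lysosomal protease Ctsb was at 125636 in both quiescent libraries and 6000 and 6288 in activated ones, a difference of -4.35 that is limited by the ceiling of the scale, and the proprotein convertase Furin was at -3.14. Pcsk6, a related convertase, was 4.10 higher and the plasminogen activator Plat 2.46 higher. Between miR-15a and control, 2 of the 9 were higher and 2 lower (median 0.12): Ctsb at 1.41 (limma adjusted p = 1.5e-05), Plaur, the urokinase receptor, at 0.34 (0.018), Pcsk6 at -0.90 (0.0095) and Plat at -0.51 (0.015). The call of Plat was lost without miR-15a library a (0.067), miR-15a library b (0.062) or control library a (0.063), that of Plaur without miR-15a library b (0.091) or control library b (0.082), and that of Pcsk6 without miR-15a library b (0.051).

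Among 8 other inhibitors and clearance receptors, 4 were higher and 3 lower with activation (median 0.02). The protease inhibitor Serpine2 was 3.72 higher and Pcolce, an enhancer of procollagen processing that resembles TIMPs in a domain, was 4.31 higher, while the plasmin inhibitor Serpinf2 was at -4.18. With miR-15a, 1 was higher and 4 lower (median -0.23): Pcolce at -0.45 (limma adjusted p = 0.0087), the endocytic receptor Lrp1 at -1.29 (0.011), Serpine2 at -0.93 (0.016) and Reck, a membrane-anchored metalloproteinase inhibitor, at -0.54 (0.032). Without miR-15a library b the adjusted p of all 4 rose past 0.05, to 0.055 for Pcolce, 0.059 for Lrp1, 0.078 for Serpine2 and 0.14 for Reck. Serpine2 was also lost without control library b (0.086), Lrp1 without miR-15a library a (0.056), and Reck without activated library a (0.051), activated library b (0.051), miR-15a library a (0.070) or control library b (0.16).

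Inducers and surface partners of metalloproteinases, 9 tested, were higher in 3 cases and lower in 5 with activation (median -0.75). The cytokines Tnf and Il1b, both known inducers of stromelysins and collagenases, were at -6.51 and -4.79, whereas Cd44, which docks metalloproteinases at the cell surface, was 1.76 higher and Bsg, the inducer EMMPRIN, 1.46 higher. With miR-15a, 4 were higher and 3 lower (median 0.43), and Il1b had the largest difference of those with a value, 2.73 (limma adjusted p = 0.000291). The tetraspanin Cd151 was 0.90 higher (0.000162), Bsg 0.43 higher (0.0030) and the integrin Itgav at -0.71 (0.0039). Il1b is also made by macrophages, whose markers moved in the same direction, and their part was not tested.

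The 7 tested ADAM sheddases are related membrane proteases, some of which Timp3 can inhibit. All 7 changed with activation, 4 higher and 3 lower (median 1.43), where 79.5% of all tested genes were called. The higher ones were Adam12 (5.39), Adam19 (3.09), Adam15 (1.56) and Adam9 (1.43). With miR-15a, Adam12 was at -0.93 (limma adjusted p = 0.000327), Adam19 at -0.69 (0.0022) and Adam8 at 0.71 (0.0062), and the other 4 were not called (median -0.13). Of 5 tested astacin proteinases and collagen-degrading enzymes, 4 were higher and 1 lower with activation (median 5.06): Tll1 (6.33) and Bmp1 (5.06), which trim procollagen, the collagen uptake receptor Mrc2 (5.65) and the collagenolytic cathepsin Ctsk (4.18). The first 3 were lower with miR-15a, Tll1 at -0.72 (0.000541), Mrc2 at -0.66 (0.0034) and Bmp1 at -0.63 (0.016), with a list median of -0.63. The Bmp1 call was lost without any 1 of the 4 compared libraries (adjusted p between 0.054 and 0.073).

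Levels can be compared between genes only per length, here the deposited value per kilobase of annotated exon. On that scale Timp3 was the highest member in all 4 groups, at 1394 in quiescent cells and 7146 in activated ones, where Timp1 followed at 3762 ± 276 (SD, n = 2). Timp2 at 1196 ± 41.6 and Mmp14 at 1045 ± 54.8 came next in activated cells, and their order turned when the longest transcript was used as the length. Mmp11 (125), Mmp19 (119) and Mmp2 (93.1) were close together and well below, followed by Mmp13 (21.5) and Mmp3 (6.94). The quiescent order after Timp3 was Mmp19 (302), Mmp14 (219), Mmp13 (206), Mmp3 (118), Timp2 (60.3), Mmp2 (20.9), Timp1 (12.4) and Mmp11 (1.26). By exon length, Timp2 stood below 4 of the metalloproteinases in quiescent cells and above all 6 in activated ones. With miR-15a the values were 11287 for Timp3, 6245 for Timp1, 1315 for Timp2, 636 for Mmp14, 107 for Mmp19, 98.8 for Mmp3, 93.6 for Mmp11, 74.3 for Mmp13 and 67.0 for Mmp2. The control miRNA libraries kept Timp3 (15427), Timp1 (7181), Timp2 (1484), Mmp14 (987) and Mmp19 (136) in that order, then had Mmp2 (126), Mmp11 (123), Mmp3 (37.5) and Mmp13 (35.7). Timp3 was at the ceiling in the control libraries. With the longest transcript as length, Mmp14 (403) passed Mmp19 (313) in quiescent cells and Mmp14 passed Timp2 in control miRNA cells. Mmp11 then moved from the 7th to the 5th place in both miRNA groups.

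Some members lie over other genes, so reads could be assigned to either. Timp3 lies inside Syn3 on the opposite strand with 1733 shared exon bases, and Syn3 was at 8 to 90 in every library. Mmp19 shares 789 exon bases with Tmem198b (23 to 125), and Mmp11 shares 155 with Chchd10 (7 to 18). Timp1 lies inside Syn1, and Timp2 overlaps Cep295nl on the same strand, both with 0 shared exon bases. The partners' values were below those of Timp3 and Mmp19 in all libraries. In quiescent cells Chchd10 was above Mmp11, and Syn1, at 93 and 74, was above Timp1. Cep295nl was not analysed here.

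For each member the 3 genes with the most similar pattern were found by the root mean square difference of centred log2(value + 5) over the 8 libraries. Mmp14 ran closest to Map9 (0.076), Nes (0.085) and Tnk2 (0.091), and Mmp2 to Arhgef40 (0.079), Syne2 (0.10) and Asf1b (0.10). Mmp13 was followed by Pycard (0.13), Sox4 (0.14) and Zfp521 (0.16). The nearest genes to Mmp3 were Phf11d (0.39), Cd34 (0.44) and Ifi44 (0.45), at a greater distance. For Mmp11 the closest was Tbx18 (0.13), for Mmp19 Dnajb9 (0.057), for Timp2 Ptgfrn (0.15), for Timp3 Serpinb1a (0.32) and for Timp1 Ltbp2 (0.38).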

How the data were processed

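RNA-seq of 8 mouse hepatic stellate cell libraries in 4 groups of 2 was used. The deposited table gives a normalised score per gene, whole numbers on 910 steps shared by all libraries, so no count model was used. The authors' steps are not described in the sources used here beyond the submitters' processing notes, which name STAR, Subread, featureCounts and mm10 without versions. Per the labels' protocols, total RNA was sequenced as single-end reads. Libraries were grouped by the labelled cell status.

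From the scores, log2(value + 5) was fitted with limma 3.58.1 in R 4.3.3 (4 group means, trended moderated variance, 4 residual degrees of freedom) for genes of at least 10 in at least 2 libraries, 13150 of 14162, with Benjamini-Hochberg adjustment. The fit was tested on simulated data. Of each pathway list, at most 4 genes called in a comparison get a value there, by smallest adjusted p. The result of 1 such gene is not reported here. Gene positions are from GENCODE M21 (GRCm38), and miRNA and promoter sequences from RefSeq (GRCm38.p6). For each result 18 alternatives were run. The members and lists were chosen with earlier results of these data known.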

Additional observations from a re-analysis of the deposited data

How the results depend on the processing

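Under the 18 alternatives, 35 of the 54 results for single members (9 genes in 6 comparisons) kept their direction and call in every one, including all 9 for activated against quiescent cells. Of 972 values, 39 lost the call, 12 gained it and 5 changed sign. The number of members called moved in 3 comparisons. When a log2 change above 1 was also required, the number was 2 for miR-15a against control, 2 for miR-15a against activated and 2 for control against activated. For control against activated it was also 3 with only the 2 compared groups in the fit, 3 without a variance trend, and 1 to 5 with 1 library left out. The sign changed for Timp1 (-0.58 to 0.10 for miR-15a against control with 1 library left out), for Mmp11 (-0.079 to 0.041 for control against activated, and 0.0625 with median-ratio scaling) and for Mmp14 (0.0004 for control against activated with median-ratio scaling). With 1 library left out, the Timp3 difference lay between -1.11 and 0 against control and between 0 and 1.11 against activated.

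Median-ratio scaling moved the median of all genes by -0.27 for activated against quiescent and by 0.14 for miR-15a against activated. The split into higher and lower genes went from 5968 and 4483 to 4749 and 5418 for activated against quiescent, from 1897 and 2029 to 2311 and 1585 for miR-15a against control, from 2204 and 2841 to 3111 and 1620 for miR-15a against activated, and from 944 and 869 to 1370 and 493 for control against activated. Genes called for activated against quiescent fell from 10451 to 6019 with the fold limit, from 9408 to 5215 for miR-15a against quiescent and from 9696 to 5634 for control against quiescent. For miR-15a against control, 3926 became 898 with the fold limit, 2296 with only the 2 compared groups, 2381 without miR-15a library b and 2385 without control library b. For miR-15a against activated, 5045 became 1178 with the fold limit, 3253 without activated library a, 2655 without activated library b and 3308 without miR-15a library b. For control against activated, 1813 became 322 with the fold limit, 436 with only the 2 compared groups, 682 without activated library a, 503 without activated library b and 675 without control library b.

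It is not stated whether the letters a and b pair libraries across groups. The correlation of deviations was -0.03 for activated and quiescent and 0.09 for miR-15a and control, which cannot decide it with 2 libraries a group. With the letters as a replicate block, 9, 5, 4 and 4 members were called for activated against quiescent, miR-15a against control, miR-15a against activated and control against activated. Depth is unknown, 2 libraries a group limit the precision, and shared steps limit the resolution of the highest genes such as Timp3. The causes of these changes were not tested, apart from the fewer samples and genes that the alternatives themselves bring.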
